A study of Mus musculus with 6 samples.

Results

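The plasminogen activation genes described here are Plau, Plat, Plaur, Serpine2, Serpinb2, Htra1, F3, Tfpi and Thbd, taken from the deposited gene expression table by symbol. All 9 were listed among the 16880 genes of the table. RNA was measured in 6 libraries of ATDC5, a mouse chondrogenic cell line. In 3 libraries (IL) the cells had received the inflammatory cytokine IL-1β at 10 ng/mL, and in 3 (ILN) the same dose together with NP-G2-044 at 10 μmol/L, each for 24 h. NP-G2-044 inhibits FSCN1 (fascin), a protein that bundles actin filaments, and the treatment label of the ILN libraries gives the code NP-G2-047 where their titles give NP-G2-044. The methods speak of chondrocytes, whereas the labels name the ATDC5 line. Since both groups received IL-1β, each comparison gives the difference that goes with the inhibitor in its presence, and untreated cells were not analysed here.

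The plasminogen system is a chain of serine proteases that works outside the cell. The urokinase-type activator (uPA, encoded by Plau) and the tissue-type activator (tPA, encoded by Plat) cut the zymogen plasminogen into plasmin, which digests fibrin and several matrix proteins and can activate matrix metalloproteinases in joint tissue. The receptor uPAR (Plaur) holds uPA at the cell surface, and serpins such as protease nexin-1 (Serpine2) and PAI-2 (Serpinb2) trap the activators. Tissue factor (F3) starts coagulation, TFPI (Tfpi) blocks it and thrombomodulin (Thbd) turns thrombin toward anticoagulant protein C, while HTRA1 (Htra1) is a secreted serine protease that cleaves cartilage matrix proteins.

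With NP-G2-044 the activator gene Plat fell 3.46-fold and Plau fell 1.48-fold, while F3 rose 2.11-fold and Htra1 rose 1.15-fold. The receptor gene Plaur did not pass the test, at a fold of 1.07 with a 95% interval of 0.971 to 1.18. The other 4 genes could not be tested, because Serpine2 and Serpinb2 were listed with no read in any library, and Tfpi and Thbd had 3 and 8 reads over all 6 libraries. Read counts were tested in edgeR (quasi-likelihood), and p-values were adjusted by Benjamini-Hochberg over the 11983 genes tested. A gene rose or fell here where its adjusted p was below 0.05, and it was called where its log2 fold change was also above 1 in size. Of the 5 tested genes, 2 rose and 2 fell, against 80% of all tested genes that changed in either direction, 40.2% higher and 39.8% lower. Past both cutoffs, F3 was called higher and Plat was called lower. That is 2 of 5 tested genes, beside 16.6% of all tested genes, 6.48% higher and 10.1% lower, and 5 genes are too few to set such a share against the background. The median log2 fold change of the 5 was 0.10, beside 0.0018 over all tested genes.

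**Figure D1:**
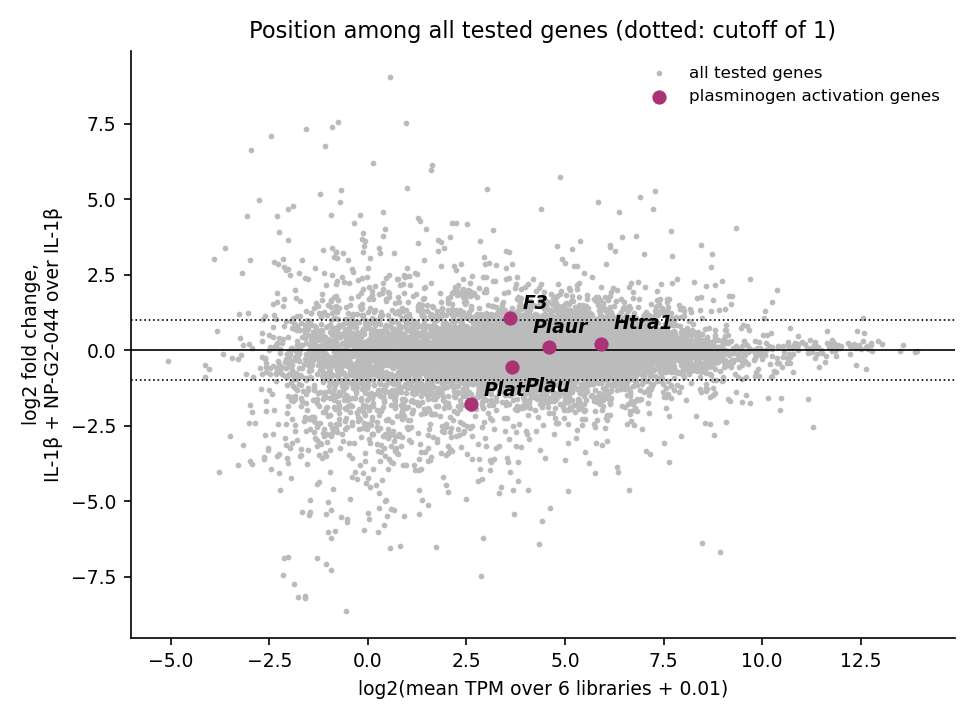
Each point is a gene that was tested, with log2 of its mean TPM over the 6 libraries plus 0.01 on the x axis and its log2 fold change, ILN (IL-1β and NP-G2-044) over IL (IL-1β), on the y axis. Among the 5 labelled plasminogen activation genes, Plat at −1.79 lay below the lower dotted line, F3 at 1.08 lay just above the upper line, and Plau, Plaur and Htra1 lay between them.

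Totals were 16615824 to 16878164 reads in the IL libraries and 17529844 to 17735860 in the ILN libraries. No library stood apart: squared differences between libraries were 1.54 to 2.39 times the sampling variance within a group and 133 to 136 times it between the groups. Each library was therefore counted as 1 replicate, and whether the libraries came from separate cultures rests on the methods, which call them biological replicates. The p-values measure the spread between these libraries, which may be technical. Fscn1, the gene of the inhibited protein, went from 616.2 ± 9.46 TPM to 252.4 ± 2.47 TPM (SD, n = 3). Defining cartilage genes were at or near 0, with Col2a1 at 0.217 ± 0.0208 TPM in IL and 0.04 ± 0.02 TPM in ILN (SD, n = 3) and Matn1 at 0 reads. Of 10 chondrocyte markers, 7 were listed and their summed level was 11.7 to 12.6 TPM in IL and 15.1 to 15.5 TPM with the inhibitor. Of the 3 that were tested, Sox9 rose (6.44 and 11.4 TPM on average), while Col11a2 (5.01 and 3.43 TPM) and Col2a1 fell. Col2a1 had only 12, 10 and 10 reads in IL and 1, 3 and 2 in ILN. It passed the filter on low counts through the IL libraries alone, so its place among the tested genes depends on its reads in IL. Of 8 fibroblast markers all were listed, with sums of 1115 to 1161 TPM and 341.7 to 355.9 TPM, nearly all of it Col1a2. Of the 6 that were tested, 5 fell and Pdgfra rose (2.36 and 8.69 TPM on average). Of 7 macrophage markers 5 were listed, with sums of 24 to 24.8 TPM and 128.9 to 140.2 TPM, and of the 2 that were tested Cd68 rose (12.4 and 129.9 TPM on average) and Cd14 fell (11.4 and 4.89 TPM). The 5 epithelial markers summed to 0.02 to 1.25 TPM and 0 to 0.08 TPM, and the 3 listed of 4 muscle markers to 0.2 to 0.28 TPM and 0.07 to 0.44 TPM. Among all tested genes, 40.2% rose and 39.8% fell, and the tested markers of each cell type are too few to set against these shares. The part of these markers in the results was not tested. In such bulk RNA, fewer cells of a type and less RNA per cell cannot be told apart.

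Among the activators, Plau (Entrez gene 18792, chr14:20836660-20843385 of mm10, plus strand, 11 exons in its longest coding transcript) had 343, 300 and 332 reads in the IL libraries and 243, 219 and 229 in the ILN libraries. In TPM, which corrects for gene length and library size, these were 15.96, 14 and 15.46 against 10.94, 9.5 and 9.93. Each inhibitor-treated library lay below each IL library. In counts scaled to library size (TMM), the groups did not overlap for Plau, Plat, Htra1 and F3, nor for 80.8% of all tested genes. The log2 fold change was −0.57 (SE 0.0789, edgeR adjusted p = 6.11e-09). A change of at least this size was found in 35.3% of the genes tested.

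Plat (Entrez gene 18791, chr8:22757727-22782844, plus strand, 14 exons) had 210, 258 and 221 reads in IL and 80, 59 and 70 in ILN. The corresponding levels were 8.57, 10.85 and 9.1 TPM and 3.13, 2.25 and 2.67 TPM. The lowest IL library was thus well above the highest inhibitor-treated library, and the means were 9.51 ± 1.19 TPM and 2.68 ± 0.44 TPM (SD, n = 3). The log2 fold change was −1.79 (SE 0.115, edgeR adjusted p = 9.73e-20), a size that 6.44% of the tested genes reached. Among the 5 tested genes, Plat had the largest log2 fold change in size, and it also had the fewest reads of them in the inhibitor-treated libraries.

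Since Plat fell further than Plau, the balance of the 2 activator transcripts shifted. The ratio of Plau to Plat in TPM was 1.86, 1.29 and 1.7 in the IL libraries and 3.5, 4.22 and 3.72 in the others. Plau was the more abundant activator transcript in all 6 libraries. These ratios, like the levels, are of RNA, and neither the proteins nor their activity were part of this table.

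Plaur (Entrez gene 18793, chr7:24462484-24475968, plus strand, 7 exons) stood at 23.34, 22.43 and 25.5 TPM in IL and at 26.58, 23.48 and 23.6 TPM in ILN, from 316, 293 and 341 reads and 377, 347 and 345 reads. The 2 groups overlapped in TPM. Its log2 fold change was 0.10 (SE 0.0724, edgeR adjusted p = 0.206). The transcript of the activator thus fell while that of its receptor did not pass the test, and the ratio of Plau to Plaur went from 0.638 ± 0.0408 to 0.413 ± 0.00802 (SD, n = 3).

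Of the inhibitors in the group, Serpine2 (Entrez gene 20720, chr1:79794197-79861180, minus strand) and Serpinb2 (Entrez gene 18788, chr1:107511423-107535478, plus strand) had 0 reads in each of the 6 libraries. A count of 0 allows up to 3 reads per group, of 50249011 reads in the IL libraries and of 52886089 in the ILN libraries, or 0.0597 and 0.0567 CPM, that is, counts scaled to library size. These limits, like the other counting intervals given here, cover counting error only. Exons of Serpinb2 overlap those of Serpinb10 on the same strand over 291 bases, and no other gene of the group shares exon bases with another gene in GENCODE.

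**Figure D2:**
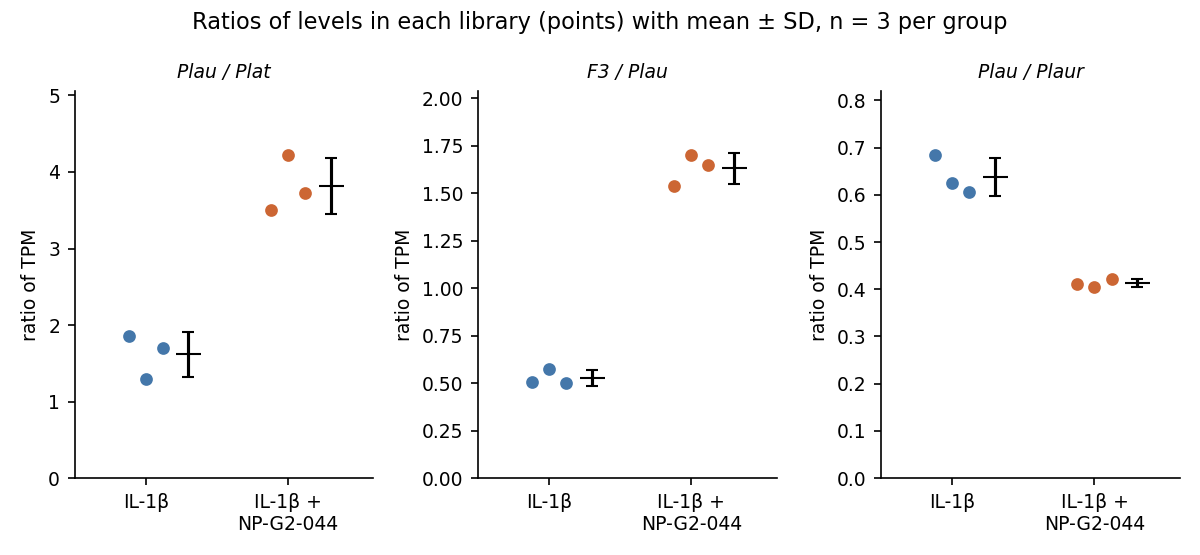
Points are the ratios of TPM in each library on the y axis for the 3 IL libraries (blue) and the 3 ILN libraries (orange), and black bars are the mean ± SD of each group. Plau over Plat and F3 over Plau were higher in all inhibitor-treated libraries, and Plau over Plaur was lower in all of them. The ratios are descriptions of transcript levels, with no test.

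Htra1 (Entrez gene 56213, chr7:130936111-130985660, plus strand, 9 exons) was the most abundant of the 9 genes. It had 1065, 1035 and 1094 reads in IL and 1294, 1286 and 1293 in ILN, or 56.12, 56.19 and 58.2 TPM against 65.32, 63.52 and 63.78 TPM. The groups did not overlap, and the spread inside each was narrow. The log2 fold change was 0.21 (SE 0.04, edgeR adjusted p = 7.6e-06), and 70.7% of the tested genes changed by at least as much. Of the other HTRA proteases, the mitochondrial Htra2 rose from 140.7 ± 1.67 TPM to 200.4 ± 4.64 TPM (SD, n = 3), or by a log2 fold change of 0.54. Htra3, at 7 reads in each IL library and 0, 0 and 1 in the others, was below the filter on low counts. The ratio of its pooled reads, IL over ILN and scaled by the read totals, was 22.1 with an exact 95% binomial interval (Clopper-Pearson) of 3.55 to 914. Htra4 had 3 reads against 0.

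F3 (Entrez gene 14066, chr3:121723537-121735048, plus strand, 6 exons) had 139, 135 and 132 reads in IL and 303, 297 and 301 in ILN. Its levels were 8.07, 8.07 and 7.74 TPM and 16.85, 16.17 and 16.36 TPM. All 3 inhibitor-treated libraries were above all 3 IL libraries, with little spread in either group. The log2 fold change was 1.08 (SE 0.0871, edgeR adjusted p = 2.63e-16). The fold was 2.11 with a 95% interval of 1.88 to 2.38, which holds the cutoff (a fold of 2), so F3 passed the test and lay close to the cutoff on size. With limma on log2(TPM + 1) the log2 fold change was 0.96 and F3 was not called.

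**Figure D3:**
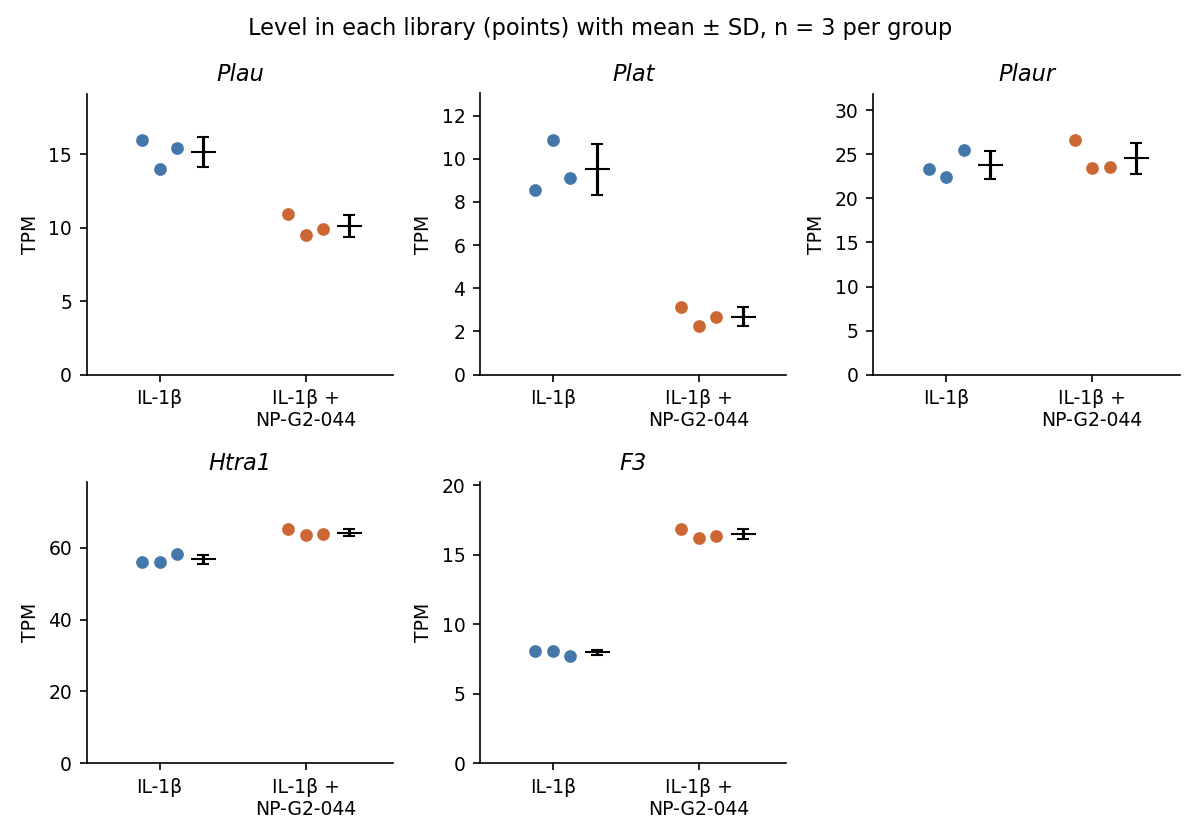
Points are TPM on the y axis in each of the 3 IL libraries (blue) and 3 ILN libraries (orange), with the mean ± SD of each group in black and a separate linear scale from 0 for each gene. Plau and Plat were lower and F3 and Htra1 higher in all inhibitor-treated libraries, and Plaur overlapped between the groups.

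The sequence upstream of F3 is shown beside those of Plaur and Serpinb2, because these 3 hold the letters of an AP-1 site, a choice made after the search, while F3 rose, Plaur did not pass the test and Serpinb2 had no read. The windows are the 250 bases before the annotated start in RefSeq on GRCm38.p6, 5′ to 3′, with chr3:121723287-121723536 for F3, chr7:24462233-24462482 for Plaur and chr1:107511173-107511422 for the first of the 2 starts of Serpinb2, all on the plus strand. Capitals mark matches to the AP-1, EGR and TATA motifs named after the sequences, and GC boxes are left in lower case.
F3: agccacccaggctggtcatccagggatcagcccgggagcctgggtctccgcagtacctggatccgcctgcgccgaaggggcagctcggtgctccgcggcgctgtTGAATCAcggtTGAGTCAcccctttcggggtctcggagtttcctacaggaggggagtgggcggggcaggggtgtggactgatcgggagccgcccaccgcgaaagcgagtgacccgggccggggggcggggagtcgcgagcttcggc
Plaur: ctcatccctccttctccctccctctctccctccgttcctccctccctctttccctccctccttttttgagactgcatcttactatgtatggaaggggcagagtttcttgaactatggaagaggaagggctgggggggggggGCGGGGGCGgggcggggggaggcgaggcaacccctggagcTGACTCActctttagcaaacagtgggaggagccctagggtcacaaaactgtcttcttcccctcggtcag
Serpinb2: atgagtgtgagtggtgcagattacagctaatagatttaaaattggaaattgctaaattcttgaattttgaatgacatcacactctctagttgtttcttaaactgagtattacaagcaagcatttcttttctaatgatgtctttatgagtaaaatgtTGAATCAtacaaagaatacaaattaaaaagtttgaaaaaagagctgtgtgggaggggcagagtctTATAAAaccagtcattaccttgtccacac

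AP-1 was searched as TGANTCA, the cyclic AMP response element (CRE) as TGACGTCA, the C/EBP-ATF response element (CARE) as TGATGNAA, the GC box as GGGCGG, the EGR site as GCGGGGGCG, the TATA box as TATAAA and NF-κB by its consensus, each on both strands. F3 held AP-1 matches at bases −146 to −140 and −135 to −129 from the start and 3 GC boxes. Plaur held an AP-1 match at −69 to −63, 3 GC boxes and an EGR match at −109 to −101, which overlaps the GC boxes at −111 to −106 and −105 to −100. Serpinb2, which had no read, held an AP-1 match at −94 to −88 and a TATA match at −29 to −24. AP-1 letters were found for 3 of the 6 genes of the group with an entry, namely F3, Plaur, Serpinb2 and not Htra1, Serpine2 or Tfpi. Of all 32851 windows of this length, 6.75% held them. The first count is of genes, some of which have further starts, and the second is of windows. These 6 genes are too few to set against that share. GC boxes were found in 32.7% of the windows, EGR matches in 2.57% and TATA matches in 12.4%. Neither CRE, found in 1.55% of all windows, nor CARE, in 3.45%, nor NF-κB, in 3.9%, was matched in the windows of these 6 genes. Such matches describe letters only and were not tied to binding in these cells. Plau, Plat and Thbd are without an entry in the sequence table.

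The anticoagulant genes of the group were barely detected. Thbd (Entrez gene 21824, chr2:148404466-148408188, minus strand, 1 exon) had 0, 1 and 0 reads in IL and 2, 3 and 2 in ILN. The groups did not overlap, but the ratio of pooled reads, ILN over IL, was 6.65 with an exact 95% binomial interval of 0.854 to 300, which includes a ratio of 1. Tfpi (Entrez gene 21788, chr2:84432855-84476775, minus strand) had 0, 1 and 1 reads against 1, 0 and 0, too few for a comparison. Both genes, with Plat, are known from endothelial cells. Of 7 endothelial markers 5 were listed, with Cdh5 at 0 reads in IL and 8 reads with the inhibitor, and the summed level of the 5 was 0.2 to 0.36 TPM and 0.58 to 0.73 TPM. These sums rest on few reads. For Cdh5 the exact 95% binomial interval of the pooled ratio, ILN over IL, began at 1.62 and had no upper end. Tek, with 3 and 23 reads, had a pooled ratio of 7.28 with an interval of 2.2 to 37.9. The intervals of Pecam1 (0.87 to 4.02) and Kdr (0.308 to 10.2) included a ratio of 1. Vwf, the marker that was tested, did not pass (edgeR adjusted p = 0.146). The part of such cells in the values of Plat, Tfpi and Thbd was not tested.

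In order of TPM in IL, the genes stood as Htra1, Plaur, Plau, Plat and F3, followed by Tfpi at 0.06 TPM and Thbd at 0.01 TPM on average. Neighbours among the first 5 did not overlap between genes. In ILN the order was Htra1, Plaur, F3, Plau and Plat, again with no overlap between neighbours. F3 went from the lowest of these 5 to the third place, and its ratio to Plau in TPM went from 0.528 ± 0.0419 to 1.63 ± 0.0819 (SD, n = 3). The sum of the 9 genes was 111.7 to 116.1 TPM in IL and 115 to 123 TPM with the inhibitor, ranges that overlap. The gene length implied by the authors' FPKM was nearly constant across libraries, 2.27 to 2.28 kb for Plat, 1.6 to 1.61 kb for F3, 1.76 to 1.77 kb for Htra1, 1.98 to 2.06 kb for Plau and 1.25 to 1.29 kb for Plaur. The TPM differences therefore follow the reads and not a change of the length used.

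Beyond the 9 genes, 18 of the 22 other genes of the plasminogen system were listed and 11 passed the filter. Of these 11, 3 rose, 7 fell and Plgrkt, a plasminogen receptor, did not pass the test (80% of all tested genes passed it), at 106.1 ± 2.31 TPM and 105.7 ± 4.03 TPM (SD, n = 3). Past both cutoffs, 1 was higher and 4 were lower, which is 45.5% of the 11 beside 16.6% of all tested genes. These 11 genes are too few to set such a share against the background, and their median log2 fold change was −0.89. Plg itself, which encodes plasminogen, is not among the listed genes used here.

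S100a10, the annexin partner that binds plasminogen and tPA, was at 944.57, 914.71 and 978.43 TPM in IL and at 357.29, 349.21 and 363.43 TPM with the inhibitor, a log2 fold change of −1.39 (edgeR adjusted p = 4.02e-39). Its partner Anxa2 changed by −0.89 on the log2 scale, from 668.1 ± 16.8 TPM to 354.1 ± 6.83 TPM (SD, n = 3). Eno1, a glycolytic enzyme that also binds plasminogen at the surface, changed by −0.61. These 3 were the most abundant tested genes of the list, and the log2 fold change of Plgrkt was −0.0082.

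Genes of uptake and clearance moved in both directions. Vldlr, an endocytic receptor for complexes of activators with serpins, rose from 7.69, 7.91 and 8.51 TPM to 31.4, 30.13 and 30.21 TPM, a log2 fold change of 1.96 (edgeR adjusted p = 1.32e-42). Igf2r, which binds uPAR, rose by 0.76. Lrp1, the main clearance receptor for the same complexes, changed by −0.91 (edgeR adjusted p = 4.43e-07), and Mrc2, the collagen receptor that associates with uPAR, changed by −1.51 (edgeR adjusted p = 3.58e-41).

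The largest change of the list was that of Thbs1, which encodes thrombospondin-1, a matricellular protein that binds plasminogen and activates TGF-β. Its levels were 177.37, 199.85 and 195.44 TPM in IL and 7.67, 7.53 and 7.2 TPM in ILN, a log2 fold change of −4.64 (SE 0.041, edgeR adjusted p = 4.67e-52). Serpini1, which encodes the tPA inhibitor neuroserpin, fell along with Plat, from 2.86 ± 0.237 TPM to 0.767 ± 0.102 TPM (SD, n = 3), or by a log2 fold change of −1.86 (edgeR adjusted p = 4.38e-14).

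**Figure D4:**
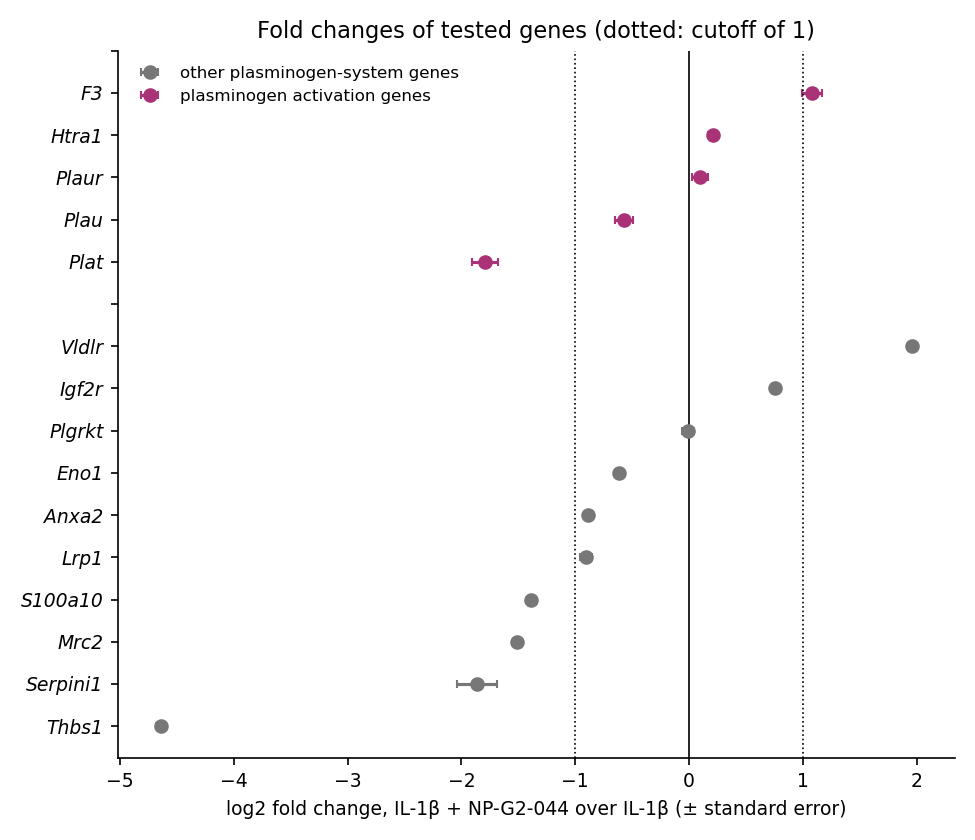
Log2 fold changes, ILN over IL, on the x axis with standard errors for the 5 tested plasminogen activation genes (purple) and 10 of the 11 tested genes of the wider plasminogen list (grey). Plat, Thbs1, Serpini1, Mrc2 and S100a10 lay below −1, and F3 and Vldlr lay above 1.

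For coagulation, 24 of 32 further genes were listed and 11 were tested, of which 2 rose, 7 fell and 2 did not pass the test, beside 80% of all tested genes that passed it. Only F8, the factor VIII gene, was past both cutoffs, which is 9.09% of the 11 beside 16.6% of all tested genes. The 11 genes are again too few to set such a share against the background, and their median log2 fold change was −0.31. F8 went from 1, 1.1 and 0.98 TPM to 0.37, 0.49 and 0.51 TPM, a log2 fold change of −1.11 (edgeR adjusted p = 1.5e-08). Without ILN replicate 1 it was −0.993 and not called, and without replicate 2 of that group Pros1, which encodes the anticoagulant protein S, was also called, at −1.06 in place of −0.98. The thrombin receptor gene F2r changed by −0.42, and F2rl1, which encodes the protease receptor PAR2, was at 14.8 ± 0.635 TPM and 14.3 ± 0.957 TPM (SD, n = 3) and did not pass the test. Procr, the receptor of protein C, rose by 0.35. Anxa5, Lman1 and Vkorc1, the most abundant tested genes of this list, changed by −0.31, −0.33 and −0.40. The F7, F9 and fibrinogen genes, which liver cells express, are not among the listed genes used here.

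Serpins apart from the 2 of the group numbered 35 in the table, 14 of them tested, with 7 higher, 5 lower and 2 that did not pass the test, beside 80% of all tested genes that passed it. Past both cutoffs, 2 were higher and 4 lower, or 42.9% of the 14 beside 16.6% of all tested genes. These 14 genes are too few to set such a share against the background, and their median log2 fold change was 0.10. Among the 4 lower, Serpina3g, Serpinb1a and Serpina3i had fewer than 10 reads in every ILN library. They passed the filter on low counts through the IL libraries alone, so their place among the tested genes depends on high reads in IL. Serpini1 belongs to this list too. The most abundant were Serpinf1, Serpinh1 and Serpinb6a. Serpinf1, which encodes the secreted factor PEDF, rose from 534.4 ± 20.6 TPM to 936.2 ± 13.95 TPM (SD, n = 3). Serpinh1, the collagen chaperone, rose by 0.25 on the log2 scale and Serpinb6a by 0.38. The largest falls were those of Serpina3g, at 67 reads over the IL libraries and 1 over the others, and Serpinb1a, at 123 and 3 reads. The ratios of their pooled reads, IL over ILN, were 70.5 with an exact 95% binomial interval of 12.2 to 2830 for Serpina3g and 43.2 with an interval of 14.4 to 212 for Serpinb1a. Serpina3i changed by −2.33, and Serpinb9d and Serpinb9g rose by 1.18 and 1.15. The Serpina3 and Serpinb9 genes are families of close copies, so how reads were divided among them is uncertain.

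The genes most alike in pattern were taken as those with the smallest Euclidean distance of centred log2(TPM + 1) over the 6 libraries, among genes of at least 10 TPM on average. For Plat they were Sipa1, Fam102b and Anln, at distances of 0.214, 0.231 and 0.236. For F3 they were Eif3c, Tbc1d31 and Faf1, at 0.0513, 0.0606 and 0.0617. For Plau they were Rnaseh2b, Retsat and Rbm4b, at 0.0779, 0.0899 and 0.104. With only 2 conditions this likeness mainly reflects an equal difference between the groups. Rbm4b matched Plau in TPM, at 33.7 TPM and 23.5 TPM, whereas its log2 fold change from counts was −0.09.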

How the data were processed

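Total RNA of 6 ATDC5 libraries was sequenced and quantified by BGI. The submitters' processing notes name cutadapt, HISAT2 2.0, StringTie and mm10 without roles, and the counting tool, the annotation and the use of strand are not stated in the labels or methods. The authors deposited estimated counts, which are not normalized and of which 10.2% to 11.1% per library are not whole, together with TPM and FPKM made by the authors per library. The authors' group means were not used.

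Groups and replicate numbers came from the titles, and the doses and the time of 24 h are those that the methods give. Rounded counts passed filterByExpr at a minimum of 10, were scaled by TMM and entered glmQLFit (robust) and glmQLFTest of edgeR 4.0.16 in R 4.3.3, 3 libraries against 3, without covariates. Adjusted p-values are of the Benjamini-Hochberg method over all 11983 tested genes. The standard error (SE) is the log2 fold change over the square root of F, and the 95% interval of a fold is the normal interval from it. TPM was used for levels, and FPKM only for the implied gene length. Alternatives were DESeq2-type size factors, library size alone, DESeq2 1.42.0, limma 3.58.1 on log2(TPM + 1) and log2(TPM + 0.1), no filter, a filter of 10 CPM in 3 libraries, the replicate number as a block and each library left out in turn. The steps were tested on simulated counts. Positions and exons are those of GENCODE vM21 on mm10, and upstream sequences are those of RefSeq on GRCm38.p6, which has the same coordinates.

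All 9 genes were named. From each wider list the called genes of largest change, at most 6, and the 3 most abundant tested genes were named, and for the 3 tested members of largest change the 3 genes most alike. Other genes, among them Plgrkt, Igf2r, Lrp1, Pros1, Procr, F2r, F2rl1, Htra2, Htra3 and Htra4, were picked once their values were known. The 9 genes and the lists were chosen with earlier results of these data known. A gene of the wider plasminogen and serpin lists is counted there but not reported here.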

Additional observations from a re-analysis of the deposited data

How the results depend on the processing

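Under the 14 alternatives, Plau, Plat, Htra1 and F3 kept their direction and an adjusted p below 0.05 in every fit, and Plaur passed in none, with adjusted p from 0.093 to 0.586. Log2 fold changes ranged from −1.91 to −1.51 for Plat, from −0.62 to −0.53 for Plau, from 0.96 to 1.10 for F3, from 0.17 to 0.22 for Htra1 and from 0.045 to 0.15 for Plaur. With limma on log2(TPM + 1), 0 of the 9 genes were called higher in place of 1, 514 and 802 of all tested genes were called higher and lower in place of 776 and 1211, and 0 coagulation genes were called lower in place of 1. F3 stood at 0.96 on that scale and at 1.04 with log2(TPM + 0.1), and the cause was not tested. With log2(TPM + 0.1), 2 coagulation genes were called lower, F8 at −1.03 and Pros1 at −1.01. Without the filter, 2 were also called lower, F8 at −1.10 and F13a1 at −1.34. F13a1 was below the filter on low counts in the main fit. The causes of these differences were not tested. Requiring 10 CPM or more in 3 libraries left 9447 genes, with 484 called higher and 680 lower. Leaving out each library in turn gave 785 to 822 of all genes called higher and 1216 to 1276 called lower, 1 of the 9 genes in each direction, 1 higher and 4 lower of the other plasminogen genes, and 0 to 2 coagulation genes lower. No pairing by replicate number was seen. The deviations of same-numbered libraries correlated at −0.0934, −0.0236 and 0.0259, and those of differently numbered libraries at −0.107 to 0.129. With 3 libraries per group, such values cannot show whether same-numbered libraries were cultured or handled together. The fit with the replicate number as a block gave 775 genes called higher and 1209 lower, with F3 at 1.08 and Plat at −1.79, and changed no call of the 9 genes. Depth limits Tfpi and Thbd, and nothing can be said of Serpine2 and Serpinb2 below the limit that a count of 0 allows.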
